A study of Mus musculus with 2 samples.

Results

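The genes described here are 10 genes of the dopamine neuron, Th, Ddc, Slc6a3, Slc18a2, Drd2, Ret, Pitx3, Lmx1b, Dlk1 and Vip. They were taken from a fixed list of known targets or partners of Nr4a2 in midbrain and located among 21887 coding genes by RefSeq gene records of GRCm38.p6, which is the mm10 build of the peaks. The data were the 7680 peaks of 1 chromatin immunoprecipitation sequencing (ChIP-seq) library made with an antibody to Nr4a2, called over 1 input library of unprecipitated DNA. Both came from BV2, an immortalised mouse microglial line, a model of the brain's resident macrophages and not of neurons. The labels name no treatment or genotype, while the library names in the file header carry the tag H2O2. Depth after duplicate removal was 20365794 tags for the ChIP and 22520884 for the input. Nothing was replicated, and every value below describes this pair of libraries only. A peak list shows no expression, so the identity of the cells was not checked against marker genes.

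Nr4a2, also called Nurr1, is an orphan nuclear receptor that midbrain dopamine neurons need for their development and maintenance. In those neurons it acts with Pitx3 and other factors on genes that make, package and take up dopamine, among them Th, Slc18a2 and Slc6a3. As a monomer it recognises the NBRE, an extended nuclear receptor half-site. In microglia it is known instead for restraining inflammatory genes.

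In the microglial line 3 of the 10 genes had a peak inside, 5 more had a peak within 100 kb and none had a peak at an end. Peaks were placed by their summits. A summit at an end, meaning within 1000 bp of it on either side, was found for 0 of 10 members and for 2.36% of all coding genes. With a share this low, 10 genes are too few for a count of 0 to stand out from it. Slc6a3, Drd2 and Lmx1b, 3 of 10, had a summit inside, compared with 11.6% of coding genes. Counting peaks inside or within 100 kb, 8 of 10 members had at least 1, compared with 50.2% of coding genes. Th and Ret had none. With peaks of a q of at most 0.05 alone the count was 6 of 10, compared with 33.4% of coding genes. At a q of at most 0.001 it was 0 of 10, compared with 2.01%, and 0 held such a peak inside, compared with 0.379%. Within 50 kb, again with all peaks, it was 5 of 10, compared with 36.1%. Some peak had the member as its closest coding gene for 5 of 10 (Slc6a3, Drd2, Lmx1b, Dlk1 and Vip), compared with 21.1% of coding genes. At a q of at most 0.001 this count was 0, compared with 0.813%. These shares were not tested against the background, because the members were chosen with earlier results of these data known.

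**Figure D1:**
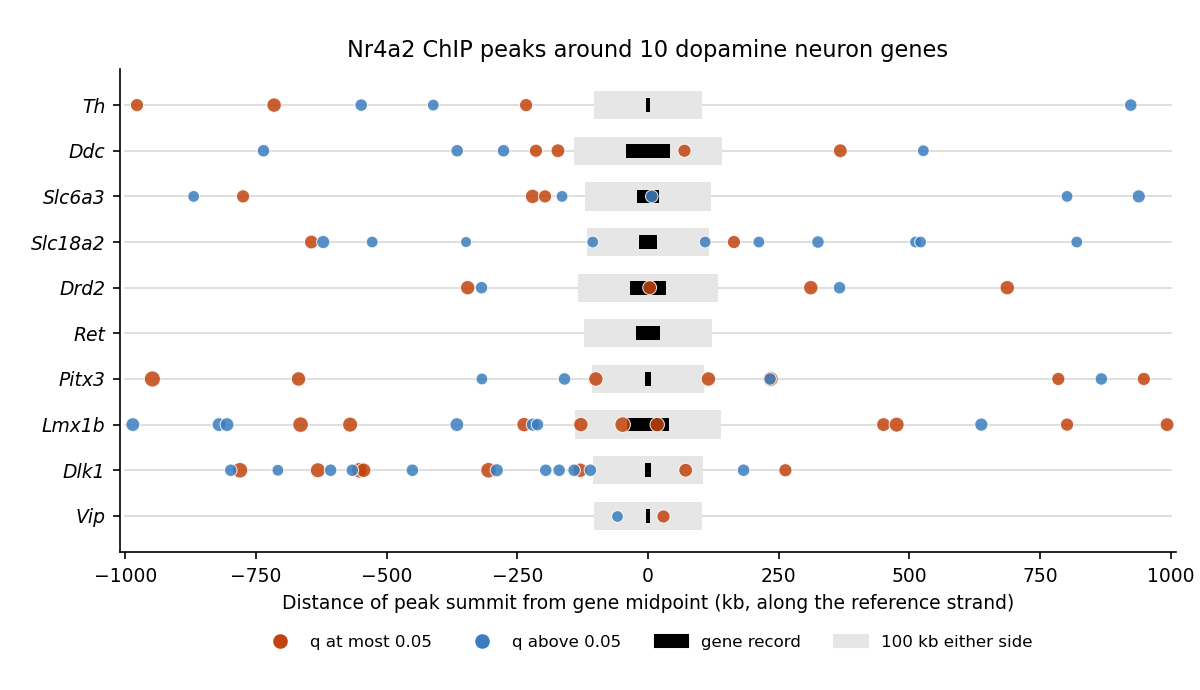
Each row is 1 gene, centred on its midpoint, with distance in kb along the reference strand. Black bars are gene records, grey bars the gene with 100 kb on either side, and points are peak summits, with area in proportion to pileup and colour by the deposited q. Summits fall inside Slc6a3, Drd2 and Lmx1b, the grey bars of Th and Ret are empty, and no point lies within 1000 kb of Ret.

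The starts of 9 members, all but Ret, were matched in a table of RefSeq promoters on GRCm38.p6, which gives 300 bases from 250 before to 50 after each start. Ddc has 2 annotated starts, giving 10 windows. None of the 10 was overlapped by a peak by 1 bp or more, compared with 0.438% of 32851 windows of the same length. Here too, 10 windows are too few for a count of 0 to stand out. The NBRE word AAAGGTCA, searched on both strands, stood in 1 of the 10 windows and in 1.51% of all windows. The half-site AGGTCA, which that word contains, stood in the same window alone among the members' and in 16.3% of all windows. That window belongs to the upstream start of Ddc. The window of the other Ddc start held neither word. The 250 bases before the upstream start are shown because they hold the match. Those of Th are shown because Th is the best known target of Nr4a2 and had neither word in its window. Sequence outside the windows was not searched. Both genes lie on the minus strand, sequences read 5′ to 3′ towards the start, and capitals mark the match, which is the word read from the opposite strand.
Ddc upstream start, chr11:11898145-11898394: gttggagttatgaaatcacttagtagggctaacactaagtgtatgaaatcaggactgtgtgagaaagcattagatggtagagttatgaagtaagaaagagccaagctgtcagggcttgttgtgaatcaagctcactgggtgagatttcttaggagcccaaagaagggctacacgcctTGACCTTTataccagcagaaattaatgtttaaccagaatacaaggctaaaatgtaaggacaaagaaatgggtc
Th, chr7:142899996-142900245: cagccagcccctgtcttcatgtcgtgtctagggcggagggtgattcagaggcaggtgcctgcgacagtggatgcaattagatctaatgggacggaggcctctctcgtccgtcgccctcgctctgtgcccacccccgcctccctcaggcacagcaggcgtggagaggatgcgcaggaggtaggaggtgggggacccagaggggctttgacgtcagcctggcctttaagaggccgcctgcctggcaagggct
In Ddc the word ran from 73 to 66 bases before the start. The nearest summit lay 27.7 kb upstream of that start and 35.5 kb upstream of the other. For Th the nearest summit was 236.8 kb downstream of the start. These words describe reference sequence, and no peak covered either stretch.

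Th and Ddc encode the enzymes of dopamine synthesis. Th, tyrosine hydroxylase, makes the rate-limiting step, and its record spans chr7:142892779-142899995. The nearest peak was 229.6 kb past its lower end at chr7:142662890-142663234, with 10 tags, a fold enrichment of 3.95 and a q of 0.0406. Pileup is the number of extended ChIP tags at the summit, fold enrichment is pileup over local background with 1 added to each, and both are the authors' values, as is q. That peak was inside the growth factor gene Igf2, and 7 coding genes were nearer to it than Th. On the other side no peak was found for 919.9 kb. Even so, the 5 Mb around Th were denser in peaks than chromosome 7 as a whole. There were 3.45 peaks per Mb there (95% Poisson interval 2.01 to 5.52), compared with 1.05 over the chromosome.

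Ddc, aromatic L-amino acid decarboxylase, makes dopamine from L-DOPA and spans 84.0 kb at chr11:11814101-11898144. Its 1 peak within 100 kb was at chr11:11925823-11926001, with 10 tags, 3.89-fold and a q of 0.0406. The summit was nearer to another gene, 4.61 kb from Grb10, an adaptor of growth factor receptors. On the downstream side the nearest peak was 130.3 kb away. The gene itself held no peak, and the 5 Mb around it had 2.60 peaks per Mb (1.38 to 4.45).

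Slc6a3 and Slc18a2 encode the transporters. Slc6a3, the dopamine transporter of the plasma membrane, spans 42.5 kb at chr13:73536128-73578672 and had a peak in its body. The peak, at chr13:73564450-73564713, had 9 tags, 3.59-fold and a q of 0.0839. It was among the lower peaks of the list, since 19.9% had fewer tags. Its summit was 27.8 kb downstream of the start, 14.1 kb from the far end, and no other coding gene lay closer than Clptm1l at 39.4 kb, followed by Lpcat1 at 48.2 kb and Tert at 62.3 kb. Exons and introns were not separated here. No further peak lay within 100 kb, the neighbours being 143.2 kb below and 780.3 kb above the gene.

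Slc18a2, the vesicular monoamine transporter, spans 35.1 kb at chr19:59260878-59296012. It had a peak on either side near the edge of the 100 kb window. The upstream peak, chr19:59172750-59172946, lay 88.1 kb away with 8 tags, 3.20-fold and a q of 0.174. The downstream peak, chr19:59387643-59387806, lay 91.8 kb away with 8 tags, 3.23-fold and the same q. Both are among the lowest of the list, in which 4.45% of peaks had fewer tags. Neither had Slc18a2 as its nearest coding gene. The first was 2.39 kb from the homeobox gene Vax1 and the second 42.0 kb from Pdzd8. Chromosome 19 is dense in peaks, and 77.3% of its coding genes had one inside or within 100 kb.

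Drd2 and Ret encode receptors. Drd2, the dopamine D2 receptor, which in dopamine neurons serves as an autoreceptor, spans 67.8 kb at chr9:49340360-49408177. Its peak at chr9:49377282-49377445 had 11 tags, 4.31-fold and a q of 0.0172, with 62.7% of the list lower in tags. The summit was 37.0 kb downstream of the start and 30.8 kb from the nearer end. The closest other coding genes were Ankk1 at 37.8 kb, Ttc12 at 59.5 kb and Gm4894 at 96.8 kb. The next peaks were 284.6 kb below and 277.5 kb above the gene. That spacing was ordinary, since the stretch between them measured 629.9 kb and 48.9% of coding genes sat in a longer one.

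Ret, the signalling receptor for GDNF family growth factors, lay in the emptiest neighbourhood of the 10. Its record spans 46.0 kb at chr6:118151748-118197744, and its nearest peak was 1675 kb away, near Alox5. That peak, chr6:116476383-116476547, had 11 tags, 4.31-fold and a q of 0.0172. The stretch between the flanking peaks measured 4620 kb, and 9.05% of coding genes sat in a longer one. Chromosome 6 was sparse as a whole. It held 47 peaks, 0.314 per Mb, and 9.33% of its coding genes had a peak inside or within 100 kb.

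Pitx3 and Lmx1b encode homeodomain transcription factors of dopamine neurons. Pitx3, which works beside Nr4a2 on shared targets, spans 13.04 kb at chr19:46135281-46148325. The 1 peak within 100 kb, at chr19:46041917-46042084, was 93.2 kb away and had 12 tags, 4.44-fold and a q of 0.00701. It lay inside another gene, Ldb1, which encodes a cofactor that binds LIM homeodomain proteins, and 6 coding genes were nearer to it than Pitx3. A further peak fell just outside the window, at 109.1 kb. On chromosome 19, 74.6% of coding genes had a nearer peak than Pitx3.

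Lmx1b, a LIM homeodomain factor, had more peaks than any other member, with 3 inside or within 100 kb. The gene spans 80.2 kb at chr2:33560965-33641208. The peak inside it, chr2:33618657-33618940, had 12 tags, 4.03-fold and a q of 0.0172, and its summit was 22.4 kb downstream of the start. Beyond the 3′ end, 8.38 kb away, lay the tallest peak of all those at the members. This peak, chr2:33552485-33552687, had 14 tags, 4.57-fold and a q of 0.00296, and 94.7% of the list had fewer tags. Its summit was inside the long noncoding RNA record Gm39789, and Lmx1b was the nearest coding gene. The third, chr2:33472653-33472830, had 12 tags, 3.69-fold and a q of 0.0371. It was 88.2 kb from Lmx1b but 4.14 kb from the zinc finger gene Zbtb43. For the peak inside Lmx1b the nearest other coding genes were Mvb12b at 111.2 kb, Zbtb43 at 150.1 kb and Zbtb34 at 187.4 kb. The neighbourhood was dense as well. The 5 Mb around Lmx1b held 34 peaks, 6.80 per Mb (4.71 to 9.50), whereas chromosome 2 had 2.92 per Mb.

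Dlk1 and Vip encode a membrane protein related to Notch ligands and a secreted neuropeptide. Dlk1 spans 10.9 kb at chr12:109452485-109463336. Its peak within 100 kb, chr12:109529953-109530132, was 66.6 kb downstream, with 11 tags, 4.25-fold and a q of 0.0172. The summit was inside the noncoding record Gm34081, 11.02 kb from the noncoding gene Meg3, and the nearest coding gene was Rtl1 at 34.9 kb. Just outside the window, at 104.8 kb, was a peak for which Dlk1 was the nearest coding gene. Dlk1 had the densest surroundings of the 10, with 37 peaks in 5 Mb, 7.40 per Mb (5.21 to 10.2). On chromosome 12, 81.0% of coding genes had a peak inside or within 100 kb, and 69.4% had a nearer peak than Dlk1.

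Vip, known chiefly from neurons that do not make dopamine, was flanked closely in a sparse region. It spans 8.43 kb at chr10:5639193-5647617. A peak 24.1 kb beyond its 3′ end, chr10:5671561-5671757, had 10 tags, 3.95-fold and a q of 0.0406, and Vip was the nearest coding gene. A second, 55.0 kb upstream at chr10:5584145-5584428, had 8 tags, 3.23-fold and a q of 0.174, and was nearer to Myct1, at 9.56 kb. Only 3 peaks lay in the 5 Mb around Vip, 0.600 per Mb (0.124 to 1.75), and these were 2 of them. On chromosome 10, 5.49% of 1001 coding genes had a nearer peak than Vip, whereas over all chromosomes it was 25.6%.

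**Figure D2:**
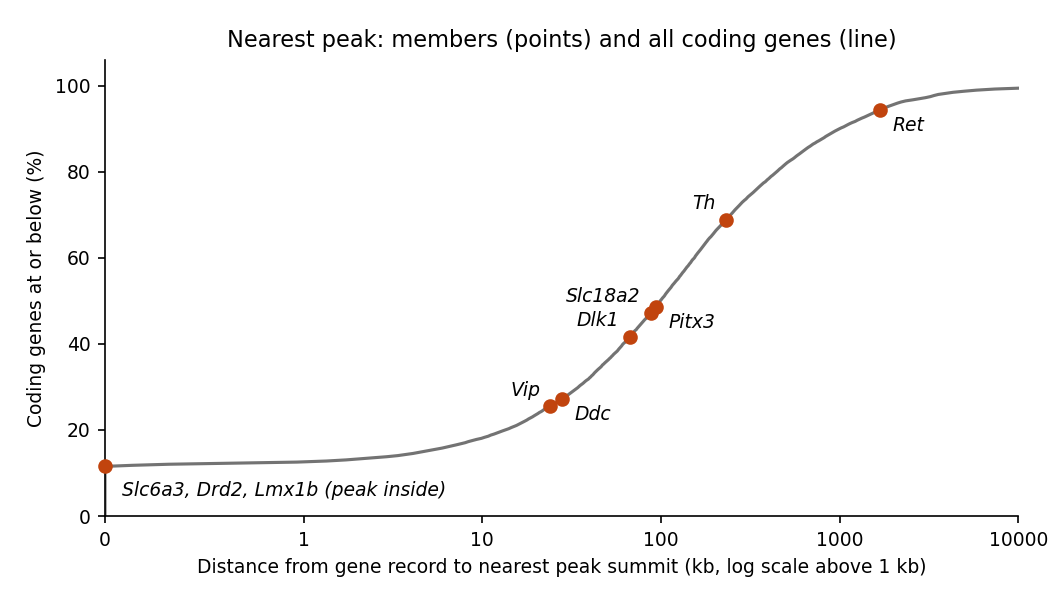
The line gives the percentage of 21887 coding genes whose nearest summit is at or below the distance on the horizontal axis, in kb on a log scale above 1 kb, and points mark the members. The 3 genes with a peak inside sit at 0, Vip and Ddc lie near 25 kb, Dlk1, Slc18a2 and Pitx3 between 66.6 and 93.2 kb, and Th and Ret farther out.

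The distances ran from 0 at the 3 genes with a peak inside to 1675 kb at Ret, and 94.4% of coding genes had a nearer peak than Ret. The median distance to the nearest summit was 47.2 kb in the members and 99.0 kb in all coding genes. With peaks of a q of at most 0.05 alone the medians were 79.9 kb and 210.2 kb, and with those of at least 10 tags 79.9 kb and 187.8 kb. Lengths of the records differ, and a longer record has more room for a summit. All 3 members with a peak inside were among the 5 members of 40 to 100 kb (Ddc, Slc6a3, Drd2, Ret and Lmx1b), a length class chosen after the values were seen. In that class 19.6% of coding genes held a summit. The other 5 members were shorter, none held a summit, and 5.28% of coding genes under 40 kb did.

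The number of peaks near each member was also set beside the density around it, in which those same peaks are counted. The 5 Mb densities ran from 0.200 per Mb at Ret to 7.40 at Dlk1, with a median of 3.12 over the members and 3.0 over coding genes. Multiplied by the length of each gene with its 100 kb flanks, these densities come to 8.77 peaks over the 10 members, and 12 were found. By gene, Lmx1b had 3 compared with 1.91 from its density and Vip 2 compared with 0.125. Slc18a2 had 2 compared with 1.11, and Dlk1 had 1 compared with 1.56. Th had 0 compared with 0.715 and Ret 0 compared with 0.0492. Poisson intervals cover counting error only.

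**Figure D3:**
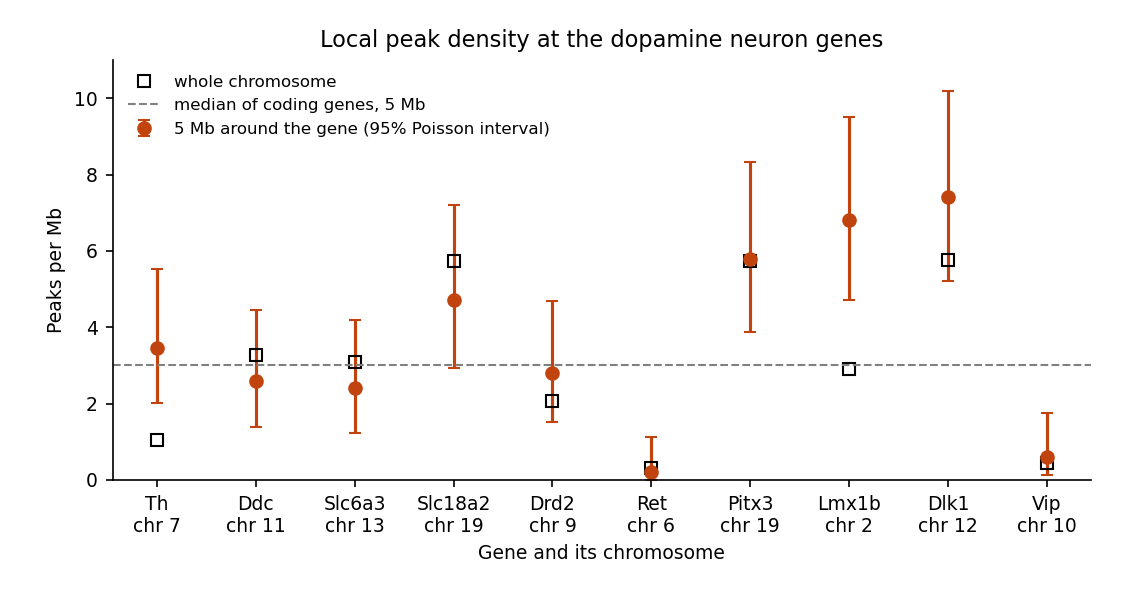
Filled points are peaks per Mb in the 5 Mb centred on each gene, with exact 95% Poisson intervals, open squares the density of its whole chromosome, and the dashed line the median over coding genes, 3.0. Lmx1b and Th stand above their chromosomes beyond the counting interval, and Ret and Vip are low with theirs.

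The 12 peaks inside or within 100 kb of the members were of ordinary height for the list. Their pileups ran from 8 to 14 tags with a median of 10.5, and the list had a median of 10 and quartiles of 9 and 11. Folds ran from 3.20 to 4.57, around the list median of 3.59. A q of at most 0.05 was held by 8 of the 12, and by 50.6% of the list. For 5 of the 12 the background recovered from the fold was within 0.002 of the genome-wide value, 1.786 tags. The same share over the whole list is not given here. Another coding gene was nearer to the summit than the member in 7 of the 12. How often this holds for coding genes at large is not given here, so the count is not read as a trait of the members. The lowest pileup listed anywhere was 7 tags, and sites that missed the p cutoff of 0.001 are not listed.

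**Figure D4:**
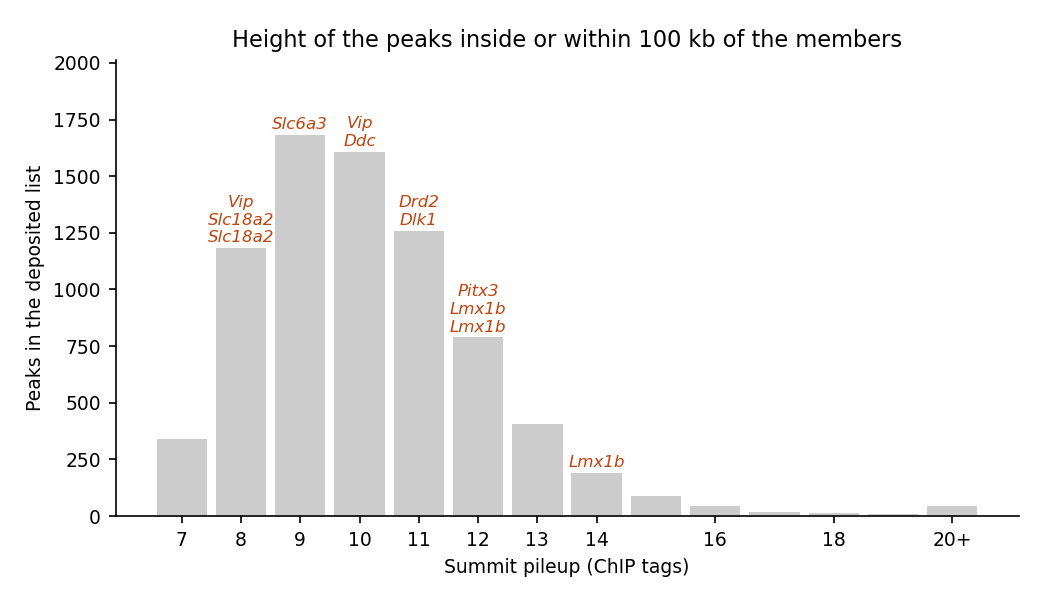
Bars count the 7680 peaks by summit pileup in tags, with 20 and above in the last bar, and a gene name above a bar marks 1 peak inside or within 100 kb of that gene. The named peaks span 8 to 14 tags, across the bulk of the list, with 1 of the Lmx1b peaks the tallest.

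Other genes of the dopamine system were counted in the same way, as 41 genes in 6 groups. There was 1 with a gene-end peak, 5 with a peak inside and 20 with a peak inside or within 100 kb, or 48.8%. These shares were near those of all coding genes, which were 2.36%, 11.6% and 50.2%. The median distance of the 41 to the nearest summit was 116.6 kb, compared with 47.2 kb for the members and 99.0 kb for all coding genes. The gene-end peak was at Dbh, dopamine beta-hydroxylase, which turns dopamine into noradrenaline. It lay 126 bp past the 3′ end, at chr2:27183289-27183453, with 9 tags, 3.40-fold and a q of 0.0839. No other gene of synthesis and breakdown, among them Gch1, which makes the cofactor of Th, and Maoa, had a peak inside or at an end.

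Of the 6 partners and corepressors of Nr4a2, all had a peak inside or within 100 kb and 2 had one inside, compared with 50.2% and 11.6% of all coding genes. Rxra, the dimer partner, had a peak of 11 tags, 4.27-fold and a q of 0.0172, and Rcor1, the CoREST corepressor, one of 10 tags, 2.96-fold and a q of 0.174. Rxra spans 86.9 kb and Rcor1 76.5 kb, and of coding genes of 40 to 100 kb 19.6% held a summit. The median surroundings of the 6 held 5.50 peaks per Mb, compared with a median of 3.0 and an upper quartile of 5.2 over coding genes. Among 10 midbrain transcription factors, 3 had a peak within 100 kb, Msx1 at 21.3 kb, En1 at 63.7 kb and En2 at 78.9 kb. None had one inside, and their median length was 6.0 kb. Nr4a2 itself was 383.6 kb from the nearest summit, Otx2 975 kb and Lmx1a 275.5 kb. The neurotrophin receptor gene Ntrk2 held a peak of 12 tags, 4.67-fold and a q of 0.00657, in a gene of 327.5 kb. The potassium channel gene Kcnj6 held 1 of 10 tags and the phosphatase gene Ptpru 1 of 8 tags, both with a q of 0.174. Calb1, a calcium-binding protein gene, was 1665 kb from a peak. The 4 dopamine receptor genes other than Drd2 had none inside. Their median length was 4.48 kb, and 5.28% of coding genes under 40 kb held a summit. The nearest summits were 14.8 kb from Drd1, 27.7 kb from Drd4, 219.1 kb from Drd3 and 272.5 kb from Drd5. Thus 2 of the 4 had a peak within 100 kb, near the share of all coding genes, 50.2%.

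Microglia marker genes, the genes of the labelled cell type, had as many loci with a peak in reach as the members did. Of 10 such genes, 8 had a peak inside or within 100 kb, none had one at an end and 2 had one inside. These were the fractalkine receptor gene Cx3cr1, with 9 tags and a q of 0.0839, and the CSF1 receptor gene Csf1r, with 11 tags and a q of 0.0172. Of 10 general neuron genes, 3 had a peak inside or within 100 kb and none had one inside or at an end. Among all coding genes the shares were 50.2% inside or within 100 kb, 11.6% inside and 2.36% at an end. Median distances to the nearest summit were 20.2 kb for the microglia genes and 234.7 kb for the neuron genes, compared with 47.2 kb for the members. Median surroundings held 2.80 peaks per Mb for the microglia genes and 1.20 for the neuron genes, compared with 3.12 for the members. These lists were not tested against each other.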

How the data were processed

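Chromatin was prepared by enzymatic digestion, per the labels' protocols. Reads were aligned to mm10 with Bowtie2, per the submitters' processing notes, which also list ChIPseeker and MACS2 2.2.6. Peaks were called with MACS 2.1.4 at a p cutoff of 0.001, per the file headers, on 1 ChIP library over 1 input, keeping 1 tag per position, with fragments of 164 bp. The deposited pileup is a coverage signal in tags. The deposited −log10 p-value and −log10 q-value and the deposited fold, a ratio with a pseudocount of 1, are the authors'. A q column is filled although the header announces none, and was used as given.

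Summits on chromosomes 1 to 19, X and Y (7652 of 7680 peaks) were set against 21887 coding gene records of GRCm38.p6 with Python 3.11.15, pandas 2.3.3 and SciPy 1.17.1. Starts and strand came from the RefSeq promoter table. Densities used the 5 Mb centred on a gene, clipped to the annotated part of the chromosome, which shortened the windows of Th and Slc18a2. The code that counts peaks inside, at an end or within 100 kb of a gene was tested on simulated data. The choice of the nearest coding gene among several, the densities and the promoter overlaps were not tested in that way. No statistical test was made. All members were named, with every peak inside, nearest or within 100 kb, and of the other lists those genes with a peak inside or at an end; further genes of those lists and neighbours of the other peaks were named after their values were seen. Some planned genes of the other lists are not reported here. The members and lists were chosen with earlier results of these data known.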

Additional observations from a re-analysis of the deposited data

How the results depend on the processing

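The peaks inside or within 100 kb of members carried 8 to 14 tags each. With a q of at most 0.001, 0 members had a peak inside, 0 within 100 kb and 0 were the nearest coding gene of a peak, compared with 0.379%, 2.01% and 0.813% of coding genes. With a window of 50 kb, 5 members had a peak, compared with 36.1% of coding genes. The median distance to the nearest peak became 79.9 kb with a q of at most 0.05 or a pileup of at least 10 (210.2 and 187.8 kb in coding genes), 47.1 kb by whole peak intervals and 48.7 kb to the nearer gene end. The median density of the members became 1.71 peaks per Mb with a q of at most 0.05, 4.0 in windows of 2 Mb and 2.85 in windows of 10 Mb. Medians over coding genes at these settings are not given here, and the one given above, for all peaks in 5 Mb, is not their counterpart. The other alternatives left each count within 1.5 times, and the count at gene ends was 0 in all that were run. No paired analysis was possible because each kind of library was made once.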

Other observations

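Picked out after the values were seen, the peaks nearest to Th, Ddc and Dlk1 lay in or near genes known for imprinted expression. Each was taken as the peak nearest to a member, so its surroundings depend on where that member lies. That of Th was inside Igf2, that of Ddc was 4.61 kb from Grb10, and that of Dlk1 was 34.9 kb from Rtl1 and 11.02 kb from Meg3. Their pileups were 10, 10 and 11 tags and their q values 0.0406, 0.0406 and 0.0172. Whether imprinted regions hold more peaks than others was not tested.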
